A study of Mus musculus with 4 samples.

Results

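Late disease-associated microglia genes are genes that microglia, the resident immune cells of the brain, are known to switch on around damaged or degenerating tissue after their resting programme has been turned down. The 10 symbols considered were the receptors Axl, Itgax and Clec7a, the membrane glycoprotein Gpnmb, the secreted factors Spp1, Igf1 and Csf1, the lipid enzymes Lpl and Ch25h, and the protease inhibitor Cst7. They were matched by symbol to the gene names of the count tables. Of the 27998 genes counted, 9 were these members, and Clec7a was not analysed here.

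RNA was counted in single nuclei of hippocampus from B6 mice aged 9 months, with a single pooled library for each of 4 genotypes: P301S/EKO (7 hippocampi), P301S (8 hippocampi), EKO (7 hippocampi) and WT (7 hippocampi). P301S denotes mice that express human tau bearing the P301S change from a transgene, which models the tau pathology of dementia, and EKO for loss of Apoe, the lipid carrier whose part in tau-linked damage the study's title names. P301S/EKO mice have both alterations, WT mice neither, and the promoter of the transgene is not given in the sources used here. Since each genotype is 1 pool of animals, the differences below are between libraries, no p-value can be given, and every 95% interval covers counting error only.

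The libraries held 6767 barcodes and 11358953 UMIs in P301S/EKO, 3156 and 8369762 in P301S, 5982 and 10283013 in EKO, and 6145 and 14251675 in WT. A UMI is a molecular tag that counts 1 captured RNA molecule. After filtering, 5274, 2860, 5199 and 5234 nuclei were kept, in the same order. Any pair of libraries shared between 19 and 69 barcode sequences, at most 1.15% of either library. Apoe followed the labels: its level in microglia-like nuclei was 11.5 CPM in P301S/EKO, 18243 CPM in P301S, 9.48 CPM in EKO and 2243 CPM in WT, where CPM gives UMIs scaled to a common total within the same class and library.

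Nuclei were clustered without the members, so that the class could not be set by them. A single cluster had all 15 of the fixed microglia markers above the other nuclei. It held 338 nuclei (6.41% of those kept) in P301S/EKO, 321 (11.2%) in P301S, 139 (2.67%) in EKO and 214 (4.09%) in WT. Median depth in this class was 1803 UMIs per nucleus in P301S/EKO, 3261 in P301S, 1871 in EKO and 3949.5 in WT, so both libraries without Apoe were shallower than both with it. The summed level of the 15 markers was 9678, 7401, 8855 and 4175 CPM in the same order, and transcripts of neurons made up a median 1.92%, 2.16%, 1.72% and 2.63% of a nucleus's UMIs, against 3.38%, 3.11%, 3.60% and 3.55% in CA1 neuron-like nuclei. Neuronal RNA was thus present in the class in every library, with the highest median share in WT. Markers of macrophages at the borders of the brain summed to 105, 157, 177 and 66.0 CPM, with 2, 0, 3 and 1 of 8 at zero. A single border marker, Stab1, supplied 74 of the 82 border UMIs in P301S/EKO, 119 of 218 in P301S, 46 of 56 in EKO and 57 of 67 in WT. The rest of the border sum was thus highest in P301S. Monocyte or dendritic cell markers stood at 21.7, 34.6, 22.1 and 33.5 CPM and lymphocyte markers at 17.9, 15.1, 19 and 9.85 CPM. The part of depth, neuronal RNA and border macrophages in the results below was not tested beyond the alternatives that leave such nuclei out.

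As background, microglia of healthy brain express homeostatic genes such as Tmem119 and P2ry12. In mouse models of neurodegeneration an early step is known to raise Apoe, Tyrobp, B2m and cathepsins, and a later step, which in mice depends on the lipid-sensing receptor Trem2, adds the genes described here. Many of the late products act on lipids, on the clearance of dying cells and on the growth of neighbouring cells.

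The members lie on 8 chromosomes in the mouse build GRCm38 (mm10), with Axl and Itgax far apart on chromosome 7, and gene spans are given from GENCODE vM21. RefSeq promoter windows, from 250 bases before to 50 bases after a transcript's start on GRCm38.p6, were at hand for 8 of the 9 members, with 2 windows for Spp1, and Lpl is named only. The windows were searched on both strands for 5 motifs of transcription factors known in myeloid cells and for the TATA box. TGANTCA, the site bound by AP-1 factors, was found in 4 of the 9 windows, against 7.81% of all 32851 windows, and begins at offsets of -56 from the start in Itgax, 8 in Gpnmb, -37 in Igf1 and -6 in Cst7, where it overlaps a C/EBP match. GAGGAAGT, the core bound by PU.1, the lineage factor of microglia, was found in 1 window, that of Spp1 (3.20% of all windows). TTGCNNAA, the C/EBP site, was found in windows of Cst7, Spp1 (its second window) and Ch25h (10.8% of all), and TATAAA in those of Spp1 and Ch25h (13.6%). Neither the M-box TCATGTG nor the CLEAR element TCACGTG, letters bound by MiT factors of lysosomal genes, was found in any of the 9 windows (3.77% of all windows for each). The 4 windows with the AP-1 letters and the Spp1 window with the PU.1 letters are shown because they hold these matches. The matches do not set these members apart in the microglia-like nuclei. As given below, all 9 members moved the same way there, also Axl and Csf1, whose windows held none of the motifs. All 5 genes are read on the plus strand, capitals mark the motif matches, and a match describes letters and not a bound site.
Itgax, chr7:128129300-128129599: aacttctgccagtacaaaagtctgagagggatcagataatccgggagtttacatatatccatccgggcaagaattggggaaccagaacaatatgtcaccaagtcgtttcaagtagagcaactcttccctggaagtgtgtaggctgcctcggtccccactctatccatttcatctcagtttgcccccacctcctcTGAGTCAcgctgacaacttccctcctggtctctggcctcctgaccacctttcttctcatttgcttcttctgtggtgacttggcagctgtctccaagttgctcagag
Gpnmb, chr6:49036268-49036567: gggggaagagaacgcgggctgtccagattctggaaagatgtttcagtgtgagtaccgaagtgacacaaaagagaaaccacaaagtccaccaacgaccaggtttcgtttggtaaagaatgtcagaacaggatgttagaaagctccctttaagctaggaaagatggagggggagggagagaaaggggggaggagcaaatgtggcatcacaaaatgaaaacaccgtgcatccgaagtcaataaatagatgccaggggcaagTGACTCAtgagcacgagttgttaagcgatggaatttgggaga
Igf1, chr10:87860861-87861160: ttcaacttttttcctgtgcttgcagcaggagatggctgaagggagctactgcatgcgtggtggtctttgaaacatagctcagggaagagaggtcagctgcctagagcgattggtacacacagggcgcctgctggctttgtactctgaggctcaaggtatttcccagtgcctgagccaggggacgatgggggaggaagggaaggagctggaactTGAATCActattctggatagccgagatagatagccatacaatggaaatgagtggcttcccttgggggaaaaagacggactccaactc
Cst7, chr2:150570165-150570464: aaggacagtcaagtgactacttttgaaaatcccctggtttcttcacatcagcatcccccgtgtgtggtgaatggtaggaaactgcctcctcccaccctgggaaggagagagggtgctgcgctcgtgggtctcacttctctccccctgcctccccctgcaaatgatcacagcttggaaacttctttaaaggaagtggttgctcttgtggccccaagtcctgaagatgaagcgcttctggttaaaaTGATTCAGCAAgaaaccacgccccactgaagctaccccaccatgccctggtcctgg
Spp1, chr5:104434861-104435160: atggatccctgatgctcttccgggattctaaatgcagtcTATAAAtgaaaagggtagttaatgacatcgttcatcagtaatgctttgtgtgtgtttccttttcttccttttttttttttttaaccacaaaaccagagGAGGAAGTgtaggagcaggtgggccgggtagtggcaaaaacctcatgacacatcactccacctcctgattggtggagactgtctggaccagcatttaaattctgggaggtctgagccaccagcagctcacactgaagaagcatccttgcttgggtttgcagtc

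In microglia-like nuclei every one of the 9 members was higher in the P301S library than in the WT library, and every one was lower in the P301S/EKO library than in the P301S library. Summed over the members the level was 172 CPM (135 UMIs) in P301S/EKO, 723 CPM (1004 UMIs) in P301S, 56.9 CPM (18 UMIs) in EKO and 65 CPM (66 UMIs) in WT. The P301S sum was 11.1 times the WT sum (interval 8.67 to 14.5), and the P301S/EKO sum was 0.238 times the P301S sum (0.198 to 0.285). The P301S/EKO sum was still 3.03 times the EKO sum (1.85 to 5.27), and the EKO sum was 0.875 times the WT sum (0.489 to 1.49), an interval that includes no difference. The tau library with Apoe stood alone at the top, the tau library without Apoe came next, and the libraries without the transgene did not differ beyond counting error on this scale. Relative to the 15 microglia markers the log2 ratio of the EKO over the WT sum was -1.26, and without the 10 nuclei of each library with the most member UMIs it was -1.12, against -0.19 as given.

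A gene was called when it stood at least 1.5-fold apart, with at least 20 UMIs over both libraries. All 9 members were called higher in P301S over WT, where 19% of 10497 genes in the class were. All 9 were called lower in P301S/EKO over P301S, where 18.8% of 10203 genes were. The members passed the UMI minimum through the P301S library, which both comparisons share, so these counts describe the members and support nothing further. The median log2 ratio of the members was 3.77 in P301S over WT, or 3.49 with the 3 members at zero in WT set to their lower bound, beside 0.10 over all genes. It was -1.70 in P301S/EKO over P301S, also with Igf1 at its bound, beside -0.11 over all genes. In P301S/EKO over EKO 2 of 3 members with enough UMIs were called higher (15.1% of 7279 genes), and in EKO over WT 1 of 2 was called lower (18.4% of 8048 genes). Relative to the 15 microglia markers rather than to all UMIs of the class, which allows for the lower marker level of the WT class, 8 of 9 members remained at least 1.5-fold higher in P301S over WT. The exception was Lpl, at a log2 ratio of 0.56.

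**Figure D1:**
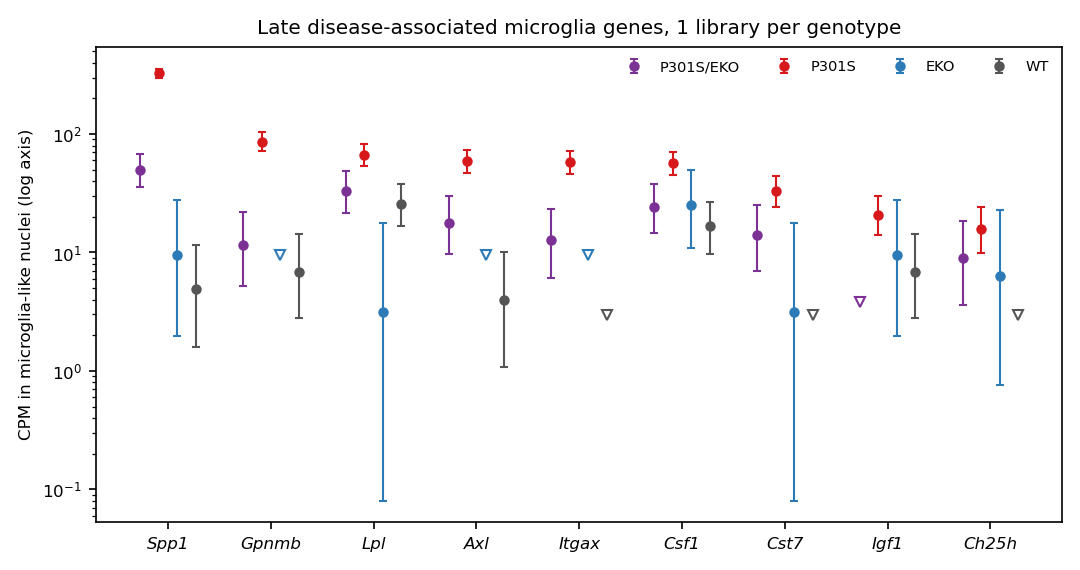
Level of each member in microglia-like nuclei in CPM on a log axis, for the libraries P301S/EKO, P301S, EKO and WT from left to right. Points are 1 library each with exact Poisson 95% intervals, and open triangles mark the level of 3 UMIs where no UMI was seen. For each member the P301S point is the highest, at 326 CPM for Spp1.

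Among the receptors, Axl (chr7:25757273-25788705, minus strand), a receptor tyrosine kinase that binds Gas6 on dying cells, had 14 UMIs (17.9 CPM) in P301S/EKO, 82 (59.1 CPM) in P301S, 0 in EKO and 4 (3.94 CPM) in WT. The P301S level was 15.0 times the WT level (interval 5.64 to 56.3) and the P301S/EKO level was 0.302 times the P301S level (0.158 to 0.537). Axl was thus highest in P301S, with a remainder in P301S/EKO. Itgax (chr7:128129547-128150657, plus strand), the alpha chain of the integrin CD11c, had 10 UMIs (12.8 CPM) in P301S/EKO, 81 (58.4 CPM) in P301S and 0 in both EKO and WT. Against a floor of 3 UMIs in the WT library, Itgax was at least 19.8-fold higher in P301S, and the P301S/EKO level was 0.219 times the P301S level (0.101 to 0.423). Itgax was seen in this class only in the libraries with the tau transgene. In the WT library no barcode held an Itgax UMI in any class, before or after filtering.

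Gpnmb (chr6:49036546-49070929, plus strand), a transmembrane glycoprotein known from lipid-laden macrophages, had 9 UMIs (11.5 CPM) in P301S/EKO, 120 (86.5 CPM) in P301S, 0 in EKO and 7 (6.89 CPM) in WT. The P301S level was 12.5 times the WT level (5.90 to 31.9). The P301S/EKO level was 0.133 times the P301S level (0.0593 to 0.261). Among the members with a UMI in both libraries, Gpnmb had the lowest ratio of P301S/EKO over P301S, and its interval overlapped that of Spp1.

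Among the secreted factors, Spp1 (chr5:104435118-104441050, plus strand), which encodes osteopontin, had 39 UMIs (49.8 CPM) in P301S/EKO, 452 (326 CPM) in P301S, 3 (9.48 CPM) in EKO and 5 (4.92 CPM) in WT. The P301S level was 66.1 times the WT level (28.1 to 205), the P301S/EKO level was 0.153 times the P301S level (0.107 to 0.212), and the P301S/EKO level was 5.25 times the EKO level (1.67 to 26.6). Spp1 was therefore raised with the transgene both with and without Apoe, on a lower scale without it. The size of the fold over WT rests on few WT UMIs: with nuclei gated by markers and not by cluster, Spp1 had 429 UMIs in P301S and 26 in WT and a log2 ratio of 3.27, against 5.93 as given, and 8.89 with an estimate of free RNA subtracted. It supplied 452 of the 1004 member UMIs of the P301S class. Without Spp1 the log2 ratio of the sum was 2.72 in P301S over WT, against 3.47 with it, and -1.70 in P301S/EKO over P301S, against -2.07. The P301S signal was spread over nuclei: the 10 nuclei with the most Spp1 held 21.0% of its UMIs in the class, and no nucleus held more than 13.

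Igf1 (chr10:87858265-87937042, plus strand), insulin-like growth factor 1, had 0 UMIs in P301S/EKO, 29 (20.9 CPM) in P301S, 3 (9.48 CPM) in EKO and 7 (6.89 CPM) in WT. The P301S level was 3.03 times the WT level (1.30 to 8.20), and against a floor of 3 UMIs the P301S/EKO level of Igf1 was at least 5.46-fold lower than the P301S level. Igf1 was the only member with no UMI in the P301S/EKO class. Over all kept nuclei Igf1 was at 4.74 CPM in P301S/EKO, 22.0 CPM in P301S, 9.04 CPM in EKO and 7.17 CPM in WT. Its microglial levels in P301S and WT were thus no higher than those of their libraries. Whether the microglial Igf1 UMIs were RNA from other classes was not tested. Csf1 (chr3:107741048-107760469, minus strand), the ligand of the microglial survival receptor Csf1r, had 19 UMIs (24.2 CPM) in P301S/EKO, 79 (56.9 CPM) in P301S, 8 (25.3 CPM) in EKO and 17 (16.7 CPM) in WT. Its P301S level was 3.4 times the WT level (1.99 to 6.13) and its P301S/EKO level 0.426 times the P301S level (0.244 to 0.710). Between P301S/EKO and EKO the Csf1 ratio was 0.959 (0.401 to 2.53). Csf1 thus stood above the other 3 libraries in P301S, and those did not differ from each other beyond counting error. With mixed nuclei left out, meaning those whose neuronal share exceeded 50% of the CA1 median, the log2 ratio of Csf1 in P301S/EKO over P301S was -0.31 and was not called. This rule kept 154 of 338 nuclei in P301S/EKO, 112 of 321 in P301S, 73 of 139 in EKO and 43 of 214 in WT.

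Among the lipid enzymes, Lpl (chr8:68880491-68907448, plus strand), which releases fatty acids from the triglycerides of lipoproteins, had 26 UMIs (33.2 CPM) in P301S/EKO, 93 (67.0 CPM) in P301S, 1 (3.16 CPM) in EKO and 26 (25.6 CPM) in WT. The P301S level was 2.62 times the WT level (1.68 to 4.21) and the P301S/EKO level was 0.495 times the P301S level (0.308 to 0.772). With a single UMI in EKO, the P301S/EKO level was 10.5 times the EKO level (1.72 to 430) and the EKO level 0.123 times the WT level (0.00301 to 0.751). Of the 2 members with enough UMIs, Lpl was called lower in EKO than in WT and Csf1 was not called. CA1 neuron-like nuclei of WT held Lpl at 47.4 CPM. With mixed nuclei left out, which leaves 8 UMIs of all members in EKO and 6 in WT, the log2 ratio of Lpl in EKO over WT was -1.01, against -2.75 as given, with free RNA subtracted it was -1.05, and in both Lpl was no longer called. Ch25h (chr19:34473778-34475164, minus strand), which makes 25-hydroxycholesterol, had 7 UMIs (8.93 CPM) in P301S/EKO, 22 (15.9 CPM) in P301S, 2 (6.32 CPM) in EKO and 0 in WT. Ch25h was at least 5.36-fold higher in P301S than in WT. Its P301S/EKO level was 0.564 times the P301S level, with an interval of 0.203 to 1.37 that includes no difference.

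Cst7 (chr2:150570415-150578944, plus strand), cystatin F, an inhibitor of cysteine cathepsins, had 11 UMIs (14.0 CPM) in P301S/EKO, 46 (33.1 CPM) in P301S, 1 (3.16 CPM) in EKO and 0 in WT. The P301S level of Cst7 was at least 11.2-fold higher than the WT level, and its P301S/EKO level was 0.424 times the P301S level (0.198 to 0.830). Like Itgax, Cst7 had no UMI in any WT barcode. The P301S/EKO class held UMIs of 8 of the 9 members, all but Igf1.

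The lists of related genes show which neighbours of the members moved in the same libraries. Their levels are relative to all UMIs of the class. The 15 microglia markers summed higher in P301S than in WT (7401 and 4175 CPM). The part of this in the P301S over WT results of the lists was not tested. Of 10 early disease-associated genes 9 were at least 1.5-fold higher in P301S than in WT, with a median log2 ratio of 1.68. Lyz2, lysozyme, stood at 324 CPM in P301S against 26.6 CPM in WT, Apoe at 18243 against 2243 CPM, H2-D1, a class I antigen-presenting chain, at 843 against 107 CPM, and B2m, its partner chain, at 324 against 66.0 CPM. In P301S/EKO over P301S only 2 of these 10 were lower, Apoe itself and Lyz2 (137 CPM in P301S/EKO against 324 CPM in P301S), and the median log2 ratio was -0.05. The other 8 early genes were within 1.5-fold of their P301S level in P301S/EKO, while the 9 late members were lower.

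Of 17 other late genes with enough UMIs, 11 were higher in P301S than in WT, with a median log2 ratio of 0.95. The higher marker sum of P301S was not allowed for here either. The 11 included the chemokine Ccl6 (23.8 against 0.985 CPM), Cd52 (44.0 against 3.94 CPM), the tetraspanin Cd63 (343 against 93.6 CPM) and the cathepsin Ctsz (415 against 129 CPM). In P301S/EKO over P301S 3 of the 17 were lower and 2 higher, with a median of -0.14: Ccl6 was at 7.66 CPM in P301S/EKO against 23.8 CPM in P301S, the hypoxia factor Hif1a at 34.5 against 61.2 CPM and the lysosomal enzyme Gusb at 72.7 against 115 CPM. The median of the other late genes therefore lay near that of all genes in this comparison, and the median of the 9 members did not.

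The TREM2 signalling chain, the receptor route that the late step is known to need in mice, had 6 of 11 genes higher and 1 lower in P301S over WT. Its adaptor Tyrobp was at 134 CPM in P301S against 51.2 CPM in WT, and the adaptor Lat2 at 44.0 against 9.85 CPM. None of the 11 passed 1.5-fold in either direction in P301S/EKO over P301S. Of 18 homeostatic genes 6 were lower and 2 higher in P301S than in WT, and of 19 such genes 10 were higher and none lower in P301S/EKO over P301S. Tmem119 was at 245 CPM in P301S/EKO, 57.6 CPM in P301S, 300.2 CPM in EKO and 141 CPM in WT, and P2ry12, a purine receptor, at 126, 41.8, 234 and 119 CPM. Of 17 homeostatic genes 13 were higher and none lower in EKO over WT, and 5 were lower and none higher in P301S/EKO over EKO. The share of all genes called in these directions is not given here. The homeostatic median log2 ratio was -0.10 in P301S over WT and 0.59 in P301S/EKO over P301S, beside 0.10 and -0.11 over all genes. It was 0.93 in EKO over WT and -0.29 in P301S/EKO over EKO, beside -0.05 and 0.01. The 15 microglia markers also summed higher in EKO than in WT (8855 and 4175 CPM). The part of this in the EKO over WT count was not tested. In P301S over WT and in P301S/EKO over P301S more homeostatic genes moved against the late members than with them.

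Partners of the late genes, meaning receptors, ligands and targets of their products, were less uniform. In P301S over WT 9 of 25 were higher and 1 lower, where 19% of all genes were higher. In P301S/EKO over P301S 2 were higher and 5 lower, where 18.8% of all genes were lower. The median log2 ratio of the partners was -0.11 in the latter, as over all genes. The cathepsins Ctsh and Ctsc, a class of enzyme that Cst7 inhibits, were at 184 CPM in P301S against 59.1 CPM in WT and at 103 against 41.4 CPM. Mertk, the receptor related to Axl, was at 25.5 CPM in P301S/EKO against 55.5 CPM in P301S, a ratio of 0.460 (0.266 to 0.760). Cyp7b1, the hydroxylase that breaks down 25-hydroxycholesterol made by Ch25h, was at 21.7 CPM in P301S/EKO, 8.65 CPM in P301S and 23.6 CPM in WT. The CPM of Ch25h went the other way. Its interval for P301S/EKO over P301S includes no difference, and Cyp7b1 is given without one, so an opposed movement is not shown there.

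Nuclei were next counted by the members they held. A nucleus was gated as microglia when it lay in the microglia-like cluster and had UMIs of at least 3 of the 15 markers, which gave 335 nuclei in P301S/EKO, 318 in P301S, 139 in EKO and 207 in WT. At least 1 member was seen in 26.3% of gated nuclei in P301S/EKO (interval 21.6 to 31.3), 77.0% in P301S (72.0 to 81.6), 11.5% in EKO (6.72 to 18) and 25.1% in WT (19.4 to 31.6). At least 2 members were seen in 18 nuclei (5.37%, 3.22 to 8.36) in P301S/EKO, 152 (47.8%, 42.2 to 53.4) in P301S, 1 (0.719%, 0.0182 to 3.94) in EKO and 7 (3.38%, 1.37 to 6.84) in WT. The highest number of different members in a single nucleus was 5, 8, 2 and 3 in the same order. The P301S library was apart from the other 3 at each number.

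Shares of nuclei with a UMI depend on depth, so each nucleus was also thinned at random to 2000 UMIs, which left out 186, 78, 79 and 45 shallower nuclei. At this equal depth at least 2 members were seen in 2.68% of 149 nuclei in P301S/EKO (0.736 to 6.73), 28.8% of 240 in P301S (23.1 to 34.9), 0 of 60 in EKO and 0 of 162 in WT, counts of zero that allow shares of up to 5% and 1.85% taken as 3 counts of the total (Clopper-Pearson 5.96% and 2.25%). Thinned to 500 UMIs, with no nucleus left out, the shares were 1.19%, 5.97%, 0% and 0%. The order of the tau libraries was the same at each depth. For comparison, pyramidal neurons hold stray RNA and also Lpl, described below, so their shares are not a level of stray RNA alone. At least 2 members were seen in 0%, 2.79%, 0.162% and 0% of CA1 neuron-like nuclei, whose median depth was 1789, 2679, 1660 and 2105 UMIs, and CA2 or CA3 neuron-like nuclei gave 0.647%, 5.42%, 1.09% and 0.593%. The P301S share of 47.8% in gated nuclei was thus above both neuronal shares of its library, and the P301S/EKO share of 5.37% above its 0.647% in CA2 or CA3 (0.134 to 1.88), while in EKO and WT the intervals of gated and CA2 or CA3 nuclei overlapped. At 2000 UMIs the CA2 or CA3 shares were 0.556%, 2.92%, 1.06% and 0%, and the gated share was apart from them in P301S and overlapped in the other libraries.

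**Figure D2:**
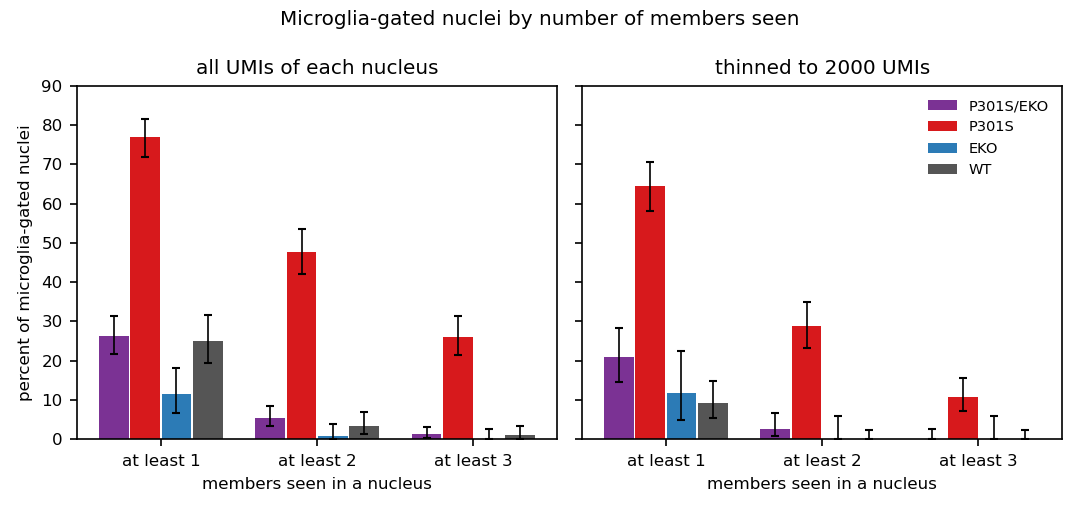
Percent of microglia-gated nuclei in which at least 1, 2 or 3 different members were seen, for P301S/EKO, P301S, EKO and WT, with all UMIs (left) and after thinning to 2000 UMIs (right). Bars start at zero and lines are Clopper-Pearson 95% intervals. In P301S 47.8% of nuclei held at least 2 members, and 28.8% after thinning.

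By gene, the most often seen member in P301S was Spp1, in 161 of 318 gated nuclei (50.6%, 45.0 to 56.3), against 26 of 335 in P301S/EKO (7.76%), 3 of 139 in EKO (2.16%) and 5 of 207 in WT (2.42%). Among all neurons of each library Spp1 was seen in 0.714% in P301S/EKO, 5.91% in P301S, 0.520% in EKO and 0.442% in WT, at median depths of 1447, 2207, 1461 and 1905 UMIs. The microglial share lay above the neuronal one beyond counting error in P301S/EKO and P301S, and in EKO the intervals overlapped. In WT it rested on 5 UMIs in nuclei with a median of 3966 UMIs. The other 8 members were seen in 5.03% (Ch25h) to 21.4% (Axl and Gpnmb) of P301S gated nuclei. In P301S/EKO the 8 members seen ranged between 1.79% for Ch25h and 7.76% for Spp1. In WT Lpl was seen most, in 12.1% of gated nuclei, and Itgax, Ch25h and Cst7 in none of 207, which allows shares of up to 1.45% taken as 3 counts of the total (Clopper-Pearson 1.77%). At 2000 UMIs per nucleus Spp1 was seen in 8.05% of P301S/EKO, 35.8% of P301S, 3.33% of EKO and 0.617% of WT nuclei, the WT interval (0.0156 to 3.39) then including the neuronal share.

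The members fell partly into the same P301S nuclei. Gpnmb was seen in 31.1% of the 161 nuclei with Spp1 (24.0 to 38.8) and in 11.5% of the 157 without (6.94 to 17.5). Itgax was seen in 26.7% and 10.2%, Csf1 in 29.2% and 10.2%, Cst7 in 19.9% and 7.64%, Lpl in 27.3% and 12.7%, and Axl in 26.7% and 15.9%. Nuclei with Spp1 were deeper, with a median of 3686 UMIs against 2750. At 2000 UMIs each, 86 nuclei had Spp1 and 154 did not: Axl was seen in 17.4% (10.1 to 27.1) and 5.84% (2.71 to 10.8), Csf1 in 19.8% (12 to 29.8) and 7.14% (3.62 to 12.4), Gpnmb in 19.8% (12 to 29.8) and 9.74% (5.55 to 15.6), and Itgax in 16.3% (9.20 to 25.8) and 7.14% (3.62 to 12.4). Lpl no longer differed, at 11.6% and 11.7%, and Cst7, Igf1 and Ch25h had overlapping intervals. With all UMIs the intervals were apart for Gpnmb, Itgax, Csf1, Cst7 and Lpl and overlapped for Axl. At equal depth the shares of Axl, Csf1, Gpnmb and Itgax were higher beside Spp1, but their intervals overlapped. Pairs without Spp1 varied: with all UMIs Cst7 was seen in 29.4% of P301S nuclei with Gpnmb (18.98 to 41.7) and 9.60% of those without (6.25 to 13.9), at median depths of 5117 and 2902.5 UMIs, and in 30.5% of nuclei with Itgax and 10.04% of those without, whereas Csf1 was seen in 17.6% with Axl and 20.4% without. At 2000 UMIs Cst7 was seen in 21.9% of nuclei with Gpnmb (9.28 to 40.0) and 6.73% without (3.73 to 11.04), and these intervals overlapped.

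**Figure D3:**
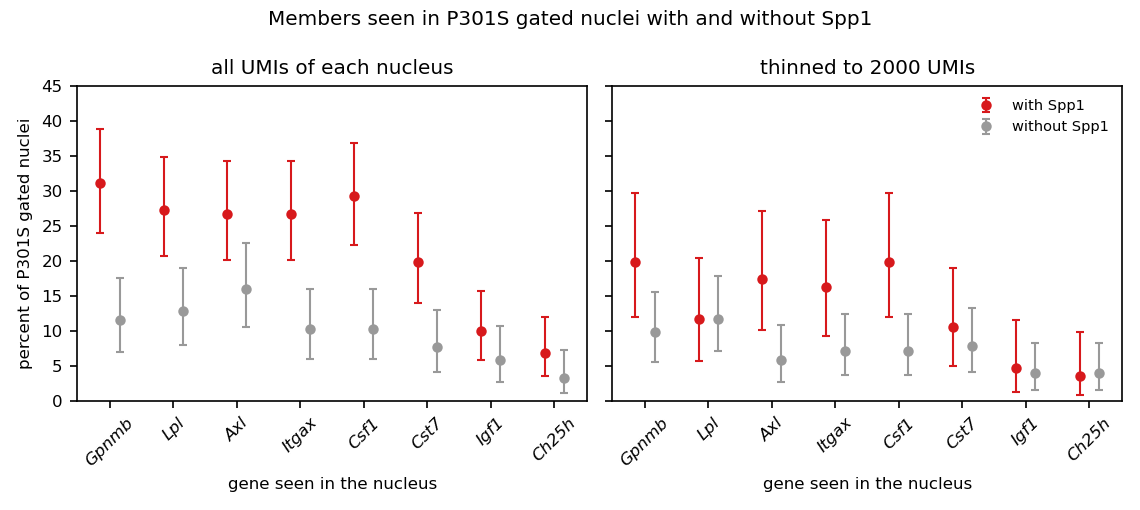
Percent of P301S microglia-gated nuclei in which each other member was seen, for nuclei with Spp1 (red) and without Spp1 (grey), with all UMIs (left) and thinned to 2000 UMIs (right); lines are Clopper-Pearson 95% intervals. With all UMIs each red point lies above its grey point, and after thinning the points for Lpl coincide at 11.6% and 11.7%.

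P301S gated nuclei with at least 2 members numbered 152, those with 1 numbered 93 and those with none 73, at median depths of 4312.5, 2674 and 2322 UMIs. Between the first and the last of these, Apoe was at 20173 and 13229 CPM (ratio 1.52, 1.47 to 1.59), the cathepsin Ctsd at 3001 and 2136 CPM (1.40, 1.27 to 1.55), the adaptor Tyrobp at 147 and 107 CPM (1.37, 0.878 to 2.21) and the cathepsin Ctsb at 1038 and 787 CPM (1.32, 1.12 to 1.56). The cathepsin Ctsz was also apart (1.44, 1.11 to 1.89), while the intervals of the cathepsins Ctsl (0.968 to 1.77) and Ctsa (0.946 to 1.57) include no difference. The homeostatic genes went both ways. Slc2a5, a fructose transporter, was at 16.3 and 35.8 CPM (0.456, 0.178 to 1.25), while Gpr34 was at 74.5 and 40.2 CPM (1.85, 0.917 to 4.23), Fcrls at 192 and 130 CPM (1.48, 0.994 to 2.28) and Cx3cr1, the fractalkine receptor, at 149 and 107 CPM (1.39, 0.893 to 2.25). Of the 17 such genes with enough UMIs, Tgfbr1, a TGF-beta receptor, was the one whose interval excluded 1, and it was higher beside several late members (1.35, 1.03 to 1.79). Intervals also excluded 1 for Trem2 (1.37, 1.05 to 1.79), Cd9 (1.37, 1.08 to 1.75), Cd63 (1.37, 1.04 to 1.83) and H2-D1 (1.20, 1.02 to 1.43). Nuclei with several late members thus held more RNA of Apoe, Ctsd, Ctsb, Ctsz, Trem2, Cd9, Cd63, H2-D1 and Tgfbr1 per UMI. A border macrophage marker other than Stab1 was seen in 20.4%, 10.8% and 11.0% of the same nuclei, which also differ in depth. Ms4a7, on the border macrophage list, had 3 UMIs in the P301S/EKO class, 42 in P301S, 2 in EKO and 0 in WT, and Mrc1, the mannose receptor that defines border macrophages, had 0, 18, 4 and 3. Nuclei with a border marker other than Stab1 were then left out, which kept 271 of 321 nuclei in P301S. Nuclei with Stab1 alone stayed in, and Stab1 was seen in 77 P301S nuclei of the class. The summed level of the members then had log2 ratios of 3.52 in P301S over WT and -2.16 in P301S/EKO over P301S. At least 2 members were then seen in 5.17% of P301S/EKO, 45.0% of P301S, 0.746% of EKO and 2.97% of WT gated nuclei.

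Outside microglia the members differed from each other in where they were found. In the P301S library 79.4% of Itgax UMIs (70.3 to 86.8) lay in microglia-like nuclei, and the shares were 64.2% for Spp1, 59.7% for Cst7, 55.3% for Gpnmb, 52.2% for Axl, 44% for Ch25h, 42.5% for Lpl, 40.5% for Csf1 and 17.7% for Igf1. Microglia-like nuclei were 11.2% of the kept nuclei of that library, a share of nuclei and not of UMIs. They were deeper than the kept nuclei as a whole (median 3261 against 2142 UMIs). They held 1387895 UMIs. Igf1 was at 20.9 CPM in this class and at 22.0 CPM over all kept nuclei of P301S. The Igf1 share was thus not above the share of kept UMIs in this class. As a gauge of stray microglial RNA, the 15 markers stood in P301S neurons at 3.95% to 12.9% of their level in microglia-like nuclei. Itgax (7.01%), Spp1 (8.06%), Axl (8.97%) and Gpnmb (12.5%) lay inside this range in neurons of P301S, while Cst7 (16.0%), Csf1 (17.3%), Ch25h (19.8%), Lpl (30.9%) and Igf1 (142%) lay above it. Spp1 had 28.6 CPM in CA1 neuron-like nuclei of P301S (20 UMIs) and no UMI in those of WT. Its neuronal level sat within the range of the markers in P301S only. In P301S/EKO it was 9.80% of the microglial level (markers 1.05% to 7.36%). In EKO it was 41.1% (markers 1.03% to 3.90%) and in WT 51.3% (1.86% to 19.3%), with 3 microglial UMIs in EKO and 5 in WT. Whether Spp1 in neurons was stray RNA was not tested.

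**Figure D4:**
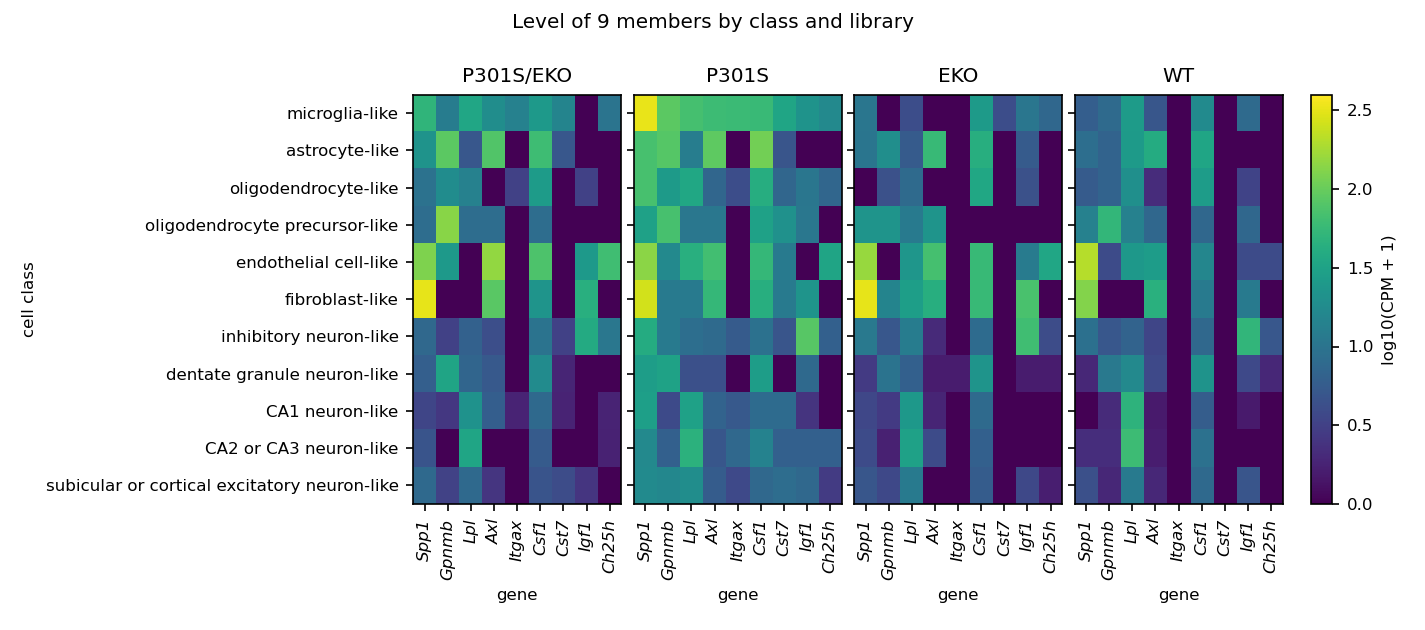
Level of the 9 members, as log10 of CPM plus 1, in 11 cell classes (rows) for the libraries P301S/EKO, P301S, EKO and WT. Spp1 in the microglia-like row is highest in P301S (326 CPM), with 49.8 CPM in P301S/EKO, 9.48 CPM in EKO and 4.92 CPM in WT. Over the 4 libraries Spp1 ranges from 131 to 321 CPM in the fibroblast-like row and from 124 to 204 CPM in the endothelial cell-like row. Igf1 ranges from 38.0 to 82.9 CPM in the inhibitory neuron-like row.

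Most Igf1 UMIs of the P301S library lay in inhibitory neuron-like nuclei, 109 of 164. Its level in inhibitory neuron-like nuclei was 38.0 CPM in P301S/EKO (35 UMIs), 82.9 CPM in P301S (109 UMIs), 62.3 CPM in EKO (61 UMIs) and 49.99 CPM in WT (61 UMIs). Between P301S/EKO and P301S the ratio was 0.459 (0.304 to 0.677), and between P301S and WT 1.66 (1.20 to 2.31). Within a cluster led by Vip, Tac2 and Htr3a, genes of a known interneuron type, Igf1 was at 79.5 CPM in P301S/EKO, 236 CPM in P301S, 153 CPM in EKO and 129 CPM in WT. In the cluster led by Sst, Igf1 was at 19.5 CPM in P301S/EKO (9.75 to 34.9) and 25.1 CPM in P301S (15.1 to 39.1). In the cluster led by Baiap2l2, Hapln1 and Ndnf it was at 48.8 CPM (19.6 to 101) and 53.0 CPM (27.4 to 92.6). These intervals overlapped, while those of the Vip cluster were apart (46.3 to 127 and 187 to 295). Beyond counting error, the order of the tau libraries in microglia-like nuclei was thus shared by the Vip cluster only.

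Lpl was present in pyramidal neurons of every library. In CA1 neuron-like nuclei it was at 20.02 CPM in P301S/EKO, 30.1 CPM in P301S, 23.5 CPM in EKO and 47.4 CPM in WT, and the CA2 or CA3 class had levels of 32.4, 45.7, 29.7 and 60.1 CPM. The EKO level was 0.497 times the WT level in CA1 (0.310 to 0.772) and 0.495 times in CA2 or CA3 (0.334 to 0.721). WT had the highest Lpl level of the 4 libraries in both pyramidal classes, whereas P301S had the highest in microglia-like nuclei.

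Outside microglia Spp1 was highest in fibroblast-like nuclei in P301S/EKO, P301S and EKO and in endothelial cell-like nuclei in WT, among classes of 11 to 1353 nuclei per library. In fibroblast-like nuclei it was at 318 CPM in P301S/EKO (15 UMIs), 261 CPM in P301S (25 UMIs), 321 CPM in EKO (23 UMIs) and 131 CPM in WT (12 UMIs), with overlapping intervals. In endothelial cell-like nuclei it was at 124, 138, 155 and 204 CPM in the same order, and the ratio of P301S over WT was 0.675 (0.413 to 1.07). Of these vessel UMIs a part came from few nuclei: in WT 12 nuclei with more mural than endothelial markers held 27 of the 70. Choroid plexus epithelium-like nuclei of P301S held Spp1 at 149 CPM (12 UMIs in 4 of 44 nuclei), with none in the 16 such nuclei of P301S/EKO or the 11 of WT. The P301S level of Spp1 was thus apart from WT in microglia-like nuclei and not, beyond counting error, in these vessel classes.

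In astrocyte-like nuclei 4 members had enough UMIs for P301S over WT and all 4 were called higher, where 22.9% of 6190 genes were. Gpnmb and Spp1 reached the UMI minimum through the P301S library, so this count supports nothing further. Gpnmb was at 86.3 CPM in P301S/EKO (21 UMIs in 10 nuclei), 80.6 CPM in P301S (21 UMIs in 15 nuclei), 18.4 CPM in EKO (4 UMIs) and 5.77 CPM in WT (3 UMIs). The P301S level was 14.0 times the WT level (4.17 to 73.2), the P301S/EKO level 4.68 times the EKO level (1.58 to 18.8), and the P301S/EKO level 1.07 times the P301S level (0.556 to 2.06). Gpnmb was therefore higher in both tau libraries beyond counting error, though with its P301S/EKO UMIs in few nuclei these intervals are too narrow. The interval of its ratio of P301S/EKO over P301S lay wholly above that of the microglia-like nuclei, where the ratio was 0.133 (0.0593 to 0.261). Itgax had no UMI in astrocyte-like nuclei of any library and Cst7 had 1, 1, 0 and 0. In astrocyte-like nuclei with no microglia marker at all Gpnmb was at 88.3, 45.8, 18.6 and 5.90 CPM, the P301S/EKO value resting on 12 UMIs in 4 of 125 nuclei and the P301S value on 2 UMIs in 1 of 27.

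Gpnmb was also seen in dentate granule neuron-like and oligodendrocyte precursor-like nuclei. In dentate granule neuron-like nuclei it was at 31.6 CPM in P301S/EKO (37 UMIs in 35 nuclei), 30.2 CPM in P301S (9 UMIs), 8.81 CPM in EKO (15 UMIs) and 10.2 CPM in WT (11 UMIs), with a ratio of P301S/EKO over EKO of 3.59 (1.92 to 7.04), of P301S over WT of 2.96 (1.08 to 7.85) and of P301S/EKO over P301S of 1.05 (0.496 to 2.47). In oligodendrocyte precursor-like nuclei Gpnmb was at 135 CPM in P301S/EKO (18 UMIs), 69.0 CPM in P301S (7 UMIs), 21.0 CPM in EKO (2 UMIs) and 51.7 CPM in WT (8 UMIs), and the P301S/EKO level was 6.44 times the EKO level (1.54 to 57.3). In CA1 neuron-like nuclei it had 2 UMIs in each library. Outside microglia Gpnmb was thus above counting error in P301S/EKO over EKO in all 3 of these classes and in P301S over WT in astrocyte-like and dentate granule neuron-like nuclei, while the P301S/EKO and P301S intervals overlapped in each.

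**Figure D5:**
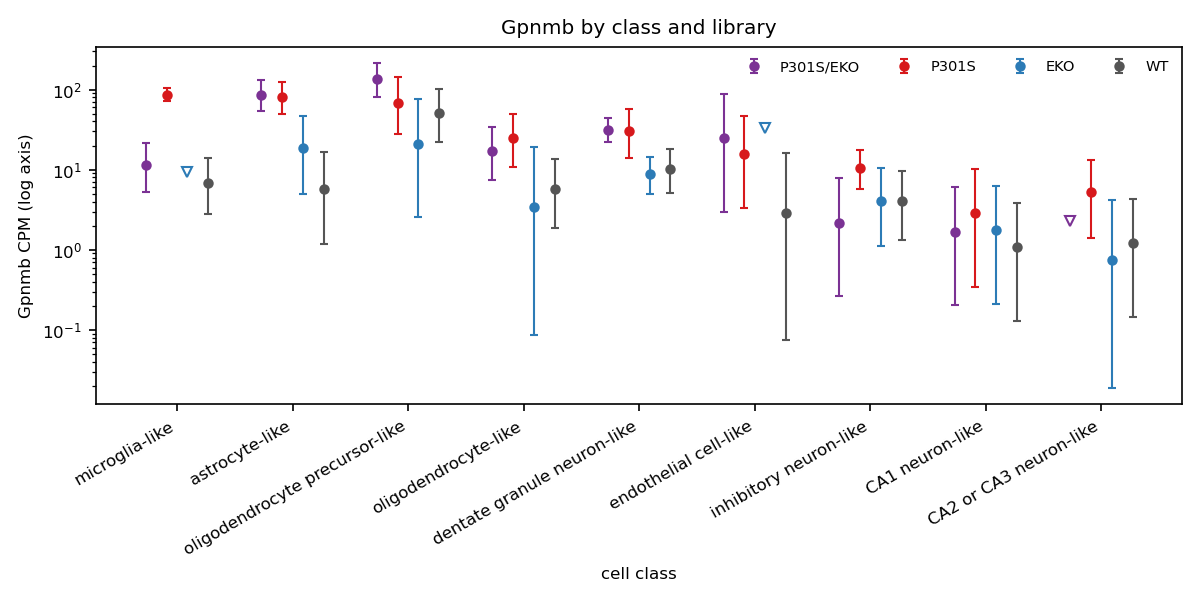
Gpnmb level in CPM on a log axis by cell class for the libraries P301S/EKO, P301S, EKO and WT from left to right, with exact Poisson 95% intervals; open triangles mark the level of 3 UMIs where none was seen. In the microglia-like class P301S is apart from P301S/EKO (86.5 and 11.5 CPM), and in the astrocyte-like class both tau libraries lie together (86.3 and 80.6 CPM).

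The other astrocyte members showed less. Axl was at 78.1 CPM in P301S/EKO, 88.3 CPM in P301S, 55.3 CPM in EKO and 38.5 CPM in WT, with a ratio of 2.30 in P301S over WT (1.21 to 4.41) and of 0.885 in P301S/EKO over P301S (0.456 to 1.70). Csf1 was at 61.7, 111, 41.5 and 32.7 CPM, with a ratio of 3.41 in P301S over WT (1.81 to 6.61) and of 0.554 in P301S/EKO over P301S (0.276 to 1.07). Csf1 was thus higher per UMI in astrocyte-like than in microglia-like nuclei of P301S (intervals 74.6 to 160 and 45.1 to 70.9 CPM), and for Axl these intervals overlapped. Spp1 was at 20.6, 69.1, 9.22 and 7.69 CPM, and its P301S astrocyte level was 21.2% of its microglial level, inside the 3.70% to 29.6% over which the 15 microglia markers ranged in the same nuclei. Of the 4 members, Spp1 and Csf1 were called lower in astrocyte-like nuclei in P301S/EKO over P301S (16.9% of 4459 genes), the interval of Csf1 including no difference.

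Across 40 points, each a cell class in a library with at least 50 nuclei, 5705 genes were ranked by how closely their level followed the summed level of the members. The closest 8 by Pearson r of log2(CPM + 10) were Cd63 (0.83), Irf2bp2, H2-K1, Ftl1, B2m, Abca1, Lgals3bp and Vtn (0.80). The points share libraries, depth and stray RNA, so this is a description. In microglia-like nuclei Abca1, which exports cholesterol from cells, was at 33.2 CPM in P301S/EKO, 87.2 CPM in P301S, 34.8 CPM in EKO and 22.7 CPM in WT. H2-K1, a class I antigen-presenting chain, was at 251, 311, 79.0 and 39.4 CPM, and B2m, its partner chain, at 368, 324, 133 and 66.0 CPM. H2-K1 and B2m were high in both tau libraries, and Abca1, like the members, stood out in P301S.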

How the data were processed

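Single-nucleus RNA was measured in 4 pooled libraries with 10x 3′ chemistry, per the labels. The authors deposited UMI counts per gene and barcode, which are whole numbers. The submitters' processing notes name Cell Ranger, Seurat and mm10; neither their versions nor the use of strand and introns is recorded in the sources used here. The members and lists were chosen with earlier results of these data known.

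Barcodes under 200 genes or above 5% mitochondrial UMIs were left out. The highest Scrublet scores, 302, 74, 261 and 271 barcodes in P301S/EKO, P301S, EKO and WT, were also removed, at a rate rising with the number of deposited barcodes, since Scrublet's own threshold called 0, 0, 1 and 1. The tools were scanpy 1.11.5, scipy 1.17.1, igraph 0.11.9, scikit-learn 1.9.0, pandas 2.3.3, numpy 2.4.6 and matplotlib 3.10.9 in Python 3.11.15. Counts of all libraries were scaled, log-transformed and clustered together (2000 variable genes, 30 components, 15 neighbours, Leiden resolution 1), without the members, Apoe, Prnp, Mapt, mitochondrial or sex-linked genes and without library correction. A cluster was named when at least 3 markers of 1 of 18 sets stood 1.5-fold above other nuclei.

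UMIs were summed per class and library. Log2 ratios carry a prior of 0.5 UMI, printed ratios are plain. Intervals are 95%: exact Poisson for levels, exact conditional binomial for ratios, Clopper-Pearson for shares; they cover counting error only. Folds against 0 use a floor of 3 UMIs per library. On simulated counts the ratio intervals were checked. Genes other than members were named by a rule. Per list and comparison these were up to 4 with the largest log2 ratio, with the 8 closest to the summed level added. Ctsl, Ctsa, Tgfbr1, Trem2, Cd9, Cd63 and H2-D1 among P301S nuclei were chosen after their values were seen. So were the pairs without Spp1, Tmem119 and P2ry12 in EKO, the border markers and the classes outside microglia. Alternatives were median-of-ratios scaling, at least 500 genes or 1100 UMIs, doublets kept, resolution 2, mixed nuclei left out, a marker gate without clusters, gated nuclei only, equal weight per nucleus, free RNA subtracted, Spp1 left out, a minimum of 1 UMI and thinning.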

Additional observations from a re-analysis of the deposited data

Results flagged for a closer look

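The barcodes left out by the filters (1493 in P301S/EKO, 296 in P301S, 783 in EKO and 911 in WT) were used in no main comparison, though the doublets among them entered the alternative that kept doublets. Several members were above the WT level there, with intervals that did not overlap. Spp1 was at 128 CPM in the left-out barcodes of P301S, against 17.7 CPM in those of WT, while P301S/EKO (10.03 CPM) and EKO (29.3 CPM) overlapped WT. Gpnmb was at 15.6 CPM in P301S/EKO, 46.1 CPM in P301S and 9.76 CPM in EKO, against 2.21 CPM in WT. Axl was at 33.3 CPM in P301S/EKO and 41.7 CPM in P301S, against 18.1 CPM in WT, and Csf1 at 25.7 CPM and 34.0 CPM, against 13.3 CPM in WT. Cst7 was at 5.21 CPM in P301S/EKO and 16.5 CPM in P301S, with no UMI in WT. Itgax was at 5.49 CPM in P301S, with no UMI in WT, and Igf1 at 19.8 CPM in P301S, against 5.74 CPM in WT. Barcodes left out include doublets and nuclei with much mitochondrial RNA, and their cell classes were not determined. Gpnmb was the one member above WT there in EKO.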

How the results depend on the processing

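No paired analysis was possible because each genotype has a single library. For the same reason no library could be left out. Over 14 alternatives the log2 ratio of the summed member level kept its sign and stayed past 1.5-fold in P301S over WT, P301S/EKO over P301S and P301S/EKO over EKO. In EKO over WT it kept its sign in 12 of 14. No called value changed sign. Uncalled values did, past 1.5-fold for Csf1 in P301S/EKO over EKO (-0.06), at 1.01 with equal weight per nucleus and 0.72 with mixed nuclei left out, and for the summed level in EKO over WT with free RNA subtracted. Of the other alternatives to main results 166 stayed the same and 38 moved, all of which are given here; of those to single members 265 stayed the same and 11 moved.

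For the summed level in P301S over WT (3.47) the moved values were 2.72 without Spp1, 3.98 with mixed nuclei left out, 2.86 with a marker gate and no clusters, 2.64 scaled to microglia markers and 4.55 with free RNA subtracted. In P301S/EKO over P301S (-2.07) they were -1.70 without Spp1, -2.42 without the 10 top nuclei of each library and -2.45 scaled to microglia markers. In EKO over WT (-0.19) they were -1.12 without the top nuclei, -1.26 scaled to markers and 0.59 with free RNA subtracted, and in P301S/EKO over EKO (1.58) 2.50 without the top nuclei. The free RNA estimate took neuronal transcripts as its gauge. It came to 76.8% in P301S/EKO, 79.7% in P301S, 82.8% in EKO and 96.8% in WT, where it was held at 90%. The values with free RNA subtracted therefore rest on few UMIs.

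Counts of members called in EKO over WT moved to 3 higher and 3 lower with a minimum of 1 UMI, to 1 higher with doublets kept, with at least 1100 UMIs per nucleus and with median-of-ratios scaling, to 0 lower with mixed nuclei left out or free RNA subtracted, and to 2 lower with the marker gate. In P301S/EKO over EKO they moved to 6 higher and 1 lower with a minimum of 1 UMI, 0 higher with mixed nuclei left out and 1 higher with free RNA subtracted.

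The share of gated nuclei with at least 2 members, in the order P301S/EKO, P301S, EKO and WT, was 1.19%, 5.97%, 0% and 0% thinned to 500 UMIs, 2.68%, 28.8%, 0% and 0% thinned to 2000 UMIs, and 26.3%, 77.0%, 11.5% and 25.1% for at least 1 member. With mixed nuclei left out it was 0% in EKO and in WT. Alternatives with border macrophage markers other than Stab1 left out, top nuclei left out, marker scaling and 2000 UMIs were chosen after seeing the data. Among single members, Spp1 in P301S over WT was 3.27 with the marker gate, and Ch25h in P301S/EKO over P301S was not called with equal weight per nucleus (-0.37) or with mixed nuclei left out (-0.56), nor Csf1 with mixed nuclei left out (-0.31). The small EKO class (139 nuclei, 316432 UMIs) limits every comparison with it.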
